A study of Mus musculus with 24 samples.

Results

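P19 cells transduced with a lentivirus carrying MyoD were compared with untransduced P19 cells, across 18193 genes on mouse expression arrays. P19 is a pluripotent mouse embryonal carcinoma line. The comparison used the 3 arrays titled as P19 with MyoD in batch 1 and the 3 arrays titled as P19 controls of that batch, which were 6 of the 24 arrays of the study. Each gene was read through 1 probe set, the one with the highest mean over all arrays. Per the labels, cells were infected in medium with polybrene at 8 µg/ml, received fresh medium after 24 hours, and were harvested 72 hours after infection. The controls were undifferentiated and untransduced, so the virus, polybrene and MyoD itself cannot be told apart. The characteristics of the MyoD arrays speak of neuronal differentiation, and the groups were therefore taken from the titles and source names. P19 is a single line, and no label says whether each of the 3 replicates had a culture of its own. The p-values then reflect only how far arrays of the same group spread, which may be technical. That spread was pooled over all 24 arrays of the study, not taken from these 6 alone. Values were set beside 6 arrays of mouse embryonic fibroblasts (MEFs) of batch 1, untransduced or with MyoD. These MEFs came from Myod-/-/Myf5-/- mice, and those with MyoD were moved to differentiation medium before harvest. They were also set beside 6 arrays of batch 3, in which P19 cells were untransduced or carried NeuroD2, a related factor of neurons.

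MyoD is a basic helix-loop-helix (bHLH) transcription factor that can turn several cell types toward skeletal muscle. It pairs with E proteins to bind the short DNA element called an E-box, switches on Myog and works with Mef2 factors and chromatin remodellers, while Id proteins hold E proteins away from it. Myog and Mef2 factors in turn act on the genes of the contractile apparatus.

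Promoters of 4 genes are shown because these genes rose in the MyoD cells by between 2.54 and 4.75 on the log2 scale, and E-boxes bear on the factor that was supplied. They are the markers Klhl41, Myog and Smarcd3, and Chrna1, a subunit of the muscle acetylcholine receptor. Each line gives the 250 bases before the RefSeq gene start in build GRCm38.p6, read 5′ to 3′ on the gene's strand. Capitals mark 3 E-box forms, which were CAGCTG, then the form CAGGTG and last the form CAGATG. Both strands were searched, so the second form can appear as CACCTG and the third as CATCTG. The first form is its own reverse complement, and the forms exclude each other at a position. Klhl41 lies on the + strand at chr2:69669870-69670119, Myog on the + strand at chr1:134289754-134290003, Smarcd3 on the - strand at chr5:24602003-24602252, and Chrna1 on the - strand at chr2:73580339-73580588.
Klhl41: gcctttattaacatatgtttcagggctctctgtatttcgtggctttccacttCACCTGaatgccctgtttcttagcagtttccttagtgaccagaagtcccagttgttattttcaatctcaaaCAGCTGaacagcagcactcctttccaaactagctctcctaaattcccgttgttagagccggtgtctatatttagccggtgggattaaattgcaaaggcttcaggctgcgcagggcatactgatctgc
Myog: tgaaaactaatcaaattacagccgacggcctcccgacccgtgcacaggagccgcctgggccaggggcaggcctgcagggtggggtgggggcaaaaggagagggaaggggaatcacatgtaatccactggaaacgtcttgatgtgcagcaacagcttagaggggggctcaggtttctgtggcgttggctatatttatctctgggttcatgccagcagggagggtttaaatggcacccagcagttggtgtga
Smarcd3: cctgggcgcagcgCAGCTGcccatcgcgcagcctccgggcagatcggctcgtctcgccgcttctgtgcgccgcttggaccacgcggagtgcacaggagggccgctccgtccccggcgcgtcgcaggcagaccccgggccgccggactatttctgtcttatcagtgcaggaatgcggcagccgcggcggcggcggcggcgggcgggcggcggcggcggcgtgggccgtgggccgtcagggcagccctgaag
Chrna1: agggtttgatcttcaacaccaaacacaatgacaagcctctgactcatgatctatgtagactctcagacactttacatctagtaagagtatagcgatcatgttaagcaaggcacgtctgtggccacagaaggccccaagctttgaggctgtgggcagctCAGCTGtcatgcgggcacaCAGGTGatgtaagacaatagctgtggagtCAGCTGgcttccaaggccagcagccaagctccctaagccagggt

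Chrna1 held 3 of these E-boxes, 92, 73 and 44 bases before its start, Klhl41 held 2 at 198 and 127 bases, and Smarcd3 held 1 at 237 bases. None of the 3 forms was found in this window of Myog. Other E-box forms were not searched, and the Myog window holds CAGTTG and CACATG, which are such forms. Its promoter is therefore not shown to lack E-boxes. CAGCTG occurred in 22.2% of 405 promoters of genes that rose (294 genes matched), in 16.2% of 117 promoters of genes that fell, and in 12.8% of 18109 promoters of all genes tested. Without the second control array the shares were 22.3% of 421 and 13.3% of 369. CAGGTG occurred in 21.7%, 25.6% and 17.2% of the same 3 sets, and CAGATG in 10.6%, 11.1% and 11.6%. These shares describe letters in short windows and were not tested.

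One control array stood apart from the rest. P19 control replicate 2 had a lower quartile of 4.79 and an upper quartile of 7.63, where the other 23 arrays lay between 4.47 and 4.58 and between 8.23 and 8.39. Its mean signal for BioB, a spiked hybridisation control, was 6.71, against 7.76 to 8.27 on the others. Across genes it correlated with controls 1 and 3 at 0.922 and 0.916, while those 2 correlated at 0.998. Genes at a level of 7 to 9 read a median 0.86 lower on it than on controls 1 and 3, and genes below 5 read 0.38 higher. The span between its quartiles was therefore narrower, and it pulled the control mean down for bright genes and up for dim ones. Results are given with all arrays and again without control 2, and a second value in parentheses after a difference or a count is the one without it. Pou5f1, the pluripotency factor Oct4, was bright in both groups. It read 13.44, 12.98 and 13.50 in controls 1 to 3 and 13.37, 13.34 and 13.29 in MyoD arrays 1 to 3. Other pluripotency genes, some of them lower without control 2, are given below.

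In the MyoD cells 370 genes rose and 123 fell (limma, adjusted p under 0.05), which is 2.03% and 0.676% of the genes tested. Without control 2, 381 rose (2.09%) and 337 fell (1.85%). Of these, 307 rises and 95 falls were called both ways, so 242 of the falls without control 2 were not called with all arrays. At least 2-fold differences, 1 unit on the log2 scale, were seen for 181 rises and 27 falls with all arrays, and for 118 and 45 without control 2. At least 4-fold differences were seen for 37 rises and 0 falls with all arrays, and for 28 and 2 without control 2. The median over all genes was 0.04 with all arrays and -0.02 without control 2. Of the 370 rises, 367 had MyoD arrays that did not overlap the controls, as did 122 of the 123 falls, against 13.9% and 8.77% of all genes in those directions. Each array weighed on these counts: without control 1 or control 3, which leaves control 2 as 1 of 2 controls, 3758 and 4837 genes rose and 2358 and 3027 fell, and without MyoD array 1, 2 or 3 the rises were 202, 212 and 203 and the falls 48, 57 and 36. With only these 6 arrays in the fit, which leaves less information on the spread, 45 genes rose and 5 fell, and against the P19 controls of batch 3 the counts were 934 (5.13%) and 1142 (6.28%). After another quantile normalization, which gives control 2 the same quartiles as the others, 444 rose and 269 fell.

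**Figure D1:**
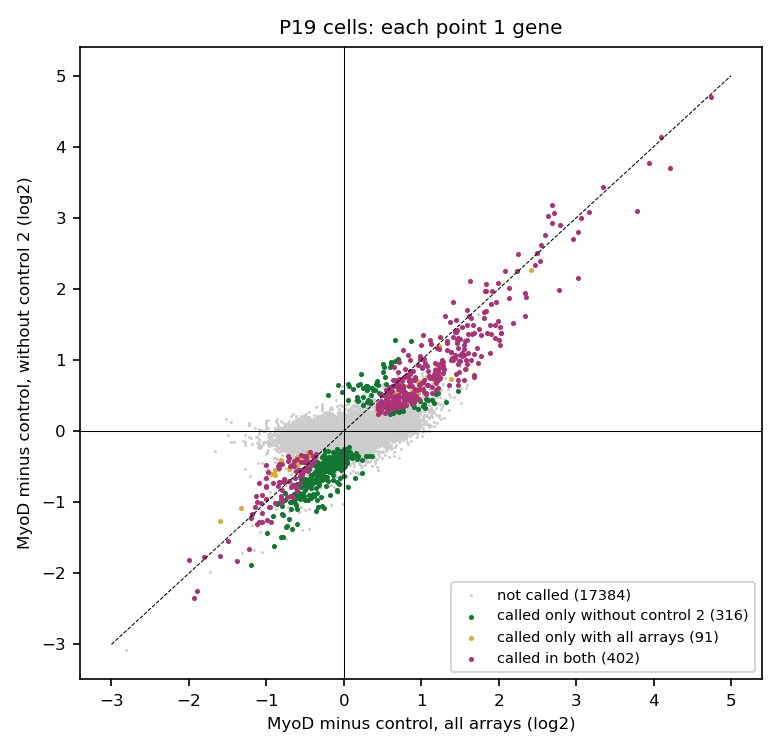
Difference between MyoD and control P19 cells (log2) for each of 18193 genes, with all arrays on the horizontal axis and without control 2 on the vertical axis, coloured by where limma called the gene. The 402 genes called in both fits keep their direction, but some lie off the dashed line of equal values, such as Megf10 at 3.02 and 2.16. Most of the 316 genes called only without control 2 lie below 0.

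The supplied factor was read first. Myod1 read 5.95, 5.40 and 5.82 in controls 1 to 3 and 9.74, 9.58 and 9.66 in MyoD arrays 1 to 3. All 3 MyoD arrays lay far above the controls, as their labels say. The difference was 3.94 ± 0.13 (SE from the pooled spread, 3 arrays against 3; limma adjusted p = 1.72e-14), and 3.78 without control 2. Neurod2 read 6.72 ± 0.49 (SD, n = 3) in controls and 6.45 ± 0.12 with MyoD and did not pass the test (limma adjusted p = 0.30).

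The 4 marker genes all rose. Klhl41, a Kelch protein that helps assemble muscle fibrils, had the largest rise of all genes named here. It read 4.08, 3.86 and 3.89 in the controls and 8.43, 8.80 and 8.83 with MyoD, a difference of 4.75 ± 0.12 (SE; limma adjusted p = 1.78e-16), or 4.70 without control 2. The gene moved from the low end of the arrays' scale to a middle level. Myog, the bHLH factor that MyoD activates in muscle precursors, read 5.24, 5.47 and 5.21 in the controls and 7.66, 7.94 and 7.96 with MyoD. Its difference was 2.54 ± 0.12 (limma adjusted p = 1.25e-11), or 2.62 without control 2, and the groups did not overlap. Myo5b, an unconventional myosin that carries recycling vesicles, read 5.71, 5.82 and 5.65 in the controls and 9.95, 9.73 and 9.78 with MyoD. The difference of 4.09 ± 0.17 (limma adjusted p = 1.31e-12) became 4.14 without control 2. Smarcd3, the Baf60c subunit of BAF chromatin remodelling complexes, read 6.51, 6.74 and 6.43 in the controls and 10.01, 9.88 and 9.82 with MyoD. The difference was 3.34 ± 0.15 (limma adjusted p = 1.02e-11), or 3.43 without control 2. For these 4 genes control 2 sat with the other controls. Of the 20 BAF subunits measured, Smarcd3 was the 1 that passed the test, in either fit.

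The other large rises joined muscle genes with genes of other kinds. Igfbp5, a binding protein of insulin-like growth factors made by differentiating myoblasts, read 6.49, 4.93 and 6.47 in the controls and 10.28, 10.23 and 10.02 with MyoD, a difference of 4.22 ± 0.38 (limma adjusted p = 3.2e-07). Control 2 was low for it, and the difference was 3.70 without that array. The other Igfbp5 probe set read -0.10 with all arrays and 0.61 without control 2 (limma adjusted p = 0.85 and 0.00149). Synpo2l, an actin-binding protein of the Z-disc, read 7.58, 5.61 and 7.76 in the controls and 10.81, 10.71 and 10.80 with MyoD. Its difference was 3.79 ± 0.60 (limma adjusted p = 0.000594), or 3.10 without control 2. Its probe sets disagreed: 2 others were also called, at 3.54 and 2.55 (3.44 and 2.41), and the last read -0.27 and was not called (limma adjusted p = 0.232). Cbln4, a secreted cerebellin of synapses, rose from 4.43 ± 0.15 (SD, n = 3) to 7.59 ± 0.24, by 3.16 (3.08 without control 2; limma adjusted p = 3.58e-12). Rtn2, a reticulon of the endoplasmic reticulum, rose by 3.03, or 2.80 without control 2. Megf10, a receptor of muscle stem cells, read 7.70, 5.09 and 7.67 in the controls and 9.80, 9.71 and 10.01 with MyoD. For Megf10 control 2 set much of the size: the difference was 3.02 with it and 2.16 without it (limma adjusted p = 0.00121 and 0.000908). Tppp3, which binds tubulin, went the other way, with control 2 at 7.86 against 6.84 and 6.75, and rose by 2.72 with it and 3.07 without it.

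**Figure D2:**
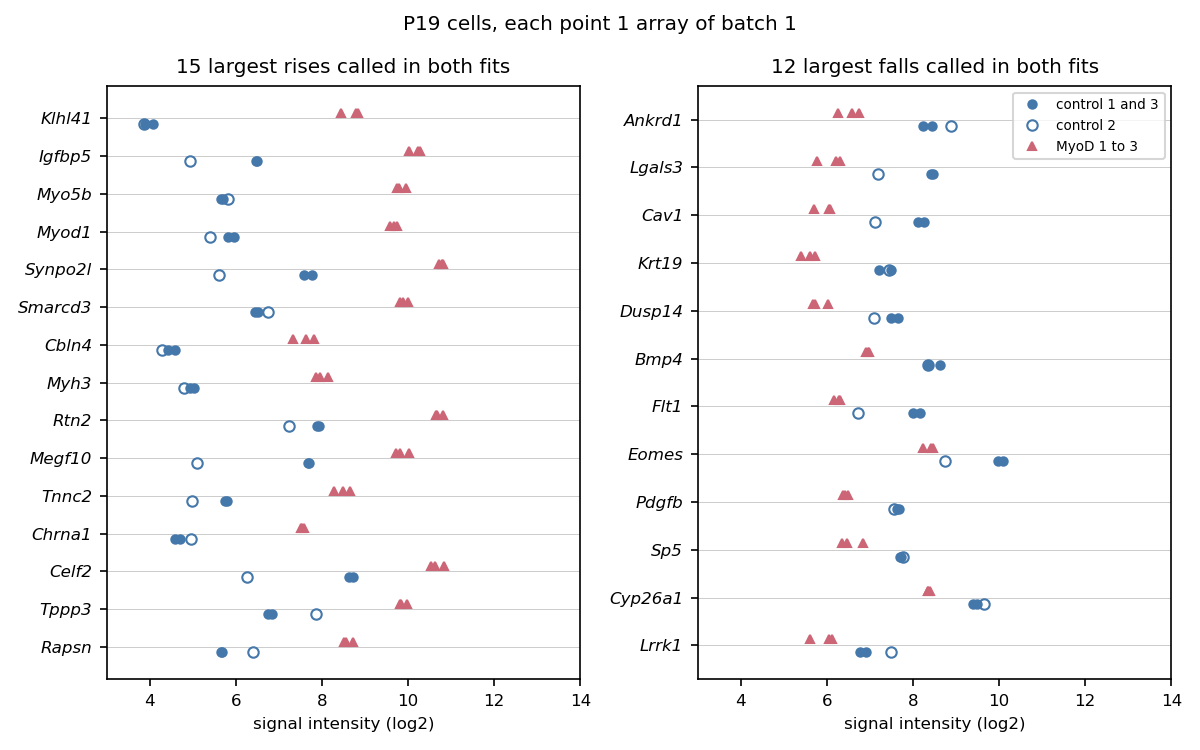
Signal intensity (log2) on each of the 6 arrays for the 15 largest rises and 12 largest falls that were called with and without control 2, with filled circles for controls 1 and 3, an open circle for control 2 and triangles for the MyoD arrays. No MyoD array overlaps a control for any of the 27 genes, because this was a condition for choosing them. The open circle lies away from the filled ones for Megf10, Celf2, Synpo2l, Igfbp5, Flt1 and Eomes.

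Among regulators of the muscle programme, rises were frequent. Of the 4 myogenic bHLH factors, Myod1 and Myog rose, while Myf5 (4.42 ± 0.55 in controls and 3.97 ± 0.26 with MyoD) and Myf6 (4.23 ± 0.069 and 4.20 ± 0.058) did not pass the test and read low in both groups. Of 24 Mef2 factors and muscle cofactors, 8 rose and 0 fell in either fit, with a list median of 0.26 (0.17 without control 2) beside 0.04 over all genes. Mef2c, the Mef2 factor of differentiating muscle, read 6.99, 5.48 and 6.99 in the controls and 8.19, 8.05 and 8.04 with MyoD. Its difference was 1.61 (limma adjusted p = 0.0013), or 1.10 without control 2, since that array was low. Mef2d rose by 1.28 (0.91 without control 2) and Hdac9, a repressor of Mef2 factors, by 1.52 (1.08). Rb1, the retinoblastoma protein, rose by 1.56 with all arrays and by 0.72 without control 2, and was called both ways (limma adjusted p = 0.038 and 0.00237). Of 19 Eya, Pax and other premyogenic factors, 3 rose and 0 fell in both fits, with a median of -0.03. The Eya coactivators Eya4 and Eya1 each rose by 2.01 with all arrays and by 1.21 and 1.29 without control 2, and Met, the receptor for hepatocyte growth factor that muscle precursors carry, rose by 1.39 (1.03).

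At the cell surface, 4 of 26 genes of myoblast fusion and adhesion rose and 0 fell in both fits. Cdh15, the M-cadherin of myoblasts, read 5.86, 7.30 and 5.78 in the controls and 9.12, 8.96 and 8.92 with MyoD, a difference of 2.69 (3.18 without control 2; limma adjusted p = 1.6e-06). Control 2 lay above the other controls but below every MyoD array. Cdon, a co-receptor that promotes myogenesis, rose by 1.39 (1.00), and the junction proteins Jam2 and Jam3 by 1.06 (0.54) and 0.68 (0.41). The 2 proteins that fuse myoblast membranes stayed low: Mymk read 4.74 ± 0.30 in controls and 5.08 ± 0.015 with MyoD, and Mymx 3.92 ± 0.14 and 4.16 ± 0.059. Neither passed the test (limma adjusted p = 0.17 and 0.21).

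Genes of the neuromuscular junction rose in 4 of 14 cases with all arrays and 5 without control 2, and 0 fell. Chrna1, whose promoter window held 3 of the marked E-boxes, read 4.57, 4.96 and 4.71 in the controls and 7.53, 7.57 and 7.52 with MyoD. The difference was 2.79 ± 0.14 (limma adjusted p = 5.42e-11), or 2.90 without control 2. Rapsn, which clusters the receptor, rose by 2.69 (2.93), Musk, the kinase that builds the synapse, by 1.99 (2.09), and the receptor subunit Chrnb1 by 1.60 (1.37). For all 4 genes the groups did not overlap, which was a condition for Chrna1 and Rapsn to count among the largest rises. Chrng, the embryonic receptor subunit, was the fifth gene called without control 2, at 0.58 (limma adjusted p = 0.0309), against 0.30 with all arrays.

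Rises were called in each of 3 lists of the contractile apparatus. Of 11 troponins and tropomyosins 6 rose in both fits, of 17 muscle myosin chains 6 (7 without control 2), and of 23 genes of actin, titin and the filament scaffold 7 (8), and 0 fell in any of them. The medians of the 3 lists were 0.73, 0.01 and 0.37, and most members of the myosin and scaffold lists were not called. Tnnc2, the calcium-binding troponin of fast muscle, read 5.74, 4.97 and 5.80 in the controls and 8.64, 8.49 and 8.28 with MyoD, a difference of 2.96 ± 0.18 (2.70 without control 2; limma adjusted p = 8.08e-10). Tnnt1, the slow troponin T, was already bright in the controls at 9.88, 9.52 and 9.95 and reached 12.40, 12.28 and 12.27, a rise of 2.53 (2.40). Tnnt2, the cardiac and embryonic troponin T, rose by 2.59 (2.76), but where probe sets that can match several transcripts were left out its difference was -0.09. Tnnc1 and Tnni1 rose by 1.97 (1.82) and 1.84 (2.07). Myh3, the embryonic myosin heavy chain, read 4.93, 4.79 and 5.02 in the controls and 7.85, 7.94 and 8.13 with MyoD, a rise of 3.06 (3.00). The light chains Mylpf, Myl1 and Myl4 rose by 2.49 (2.51), 1.81 (1.67) and 1.52 (1.46). Ttn, the giant spring of the sarcomere, read 6.64, 7.89 and 6.75 in the controls and 9.47, 9.68 and 10.03 with MyoD, a rise of 2.63 (3.03).

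Actc1, the cardiac alpha-actin that embryonic skeletal muscle also makes, read 10.39, 9.96 and 10.40 in the controls and 12.68, 12.68 and 12.66 with MyoD. The groups lay apart, and the difference was 2.42 ± 0.57 (limma adjusted p = 0.0232), but without control 2 it was 2.27 with an adjusted p of 0.051. Acta1, the adult skeletal alpha-actin, read 8.47 ± 0.26 (SD, n = 3) in controls and 9.01 ± 0.19 with MyoD and did not pass (limma adjusted p = 0.26, or 0.78 without control 2). Unc45b, a chaperone of myosin folding, rose by 2.24 (2.25), and the sarcomere methyltransferase Smyd1 by 1.18 (0.96). Lmod3 and Neb, which set thin filament length, rose by 0.71 (0.97) and 0.65 (0.64) at levels of 5.16 and 4.26 with MyoD, near the low end of the scale.

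Of 28 Z-disc, Kelch and costamere genes 7 rose and 1 fell, or 6 and 1 without control 2. The muscle ubiquitin ligases Trim63 and Fbxo32 rose by 1.81 and 1.18, and without control 2 Trim63 kept its call at 1.59 while Fbxo32 lost it at 0.69 (limma adjusted p = 0.0541). Des, the intermediate filament of muscle, read 7.67, 7.56 and 7.51 in the controls and 8.27, 8.01 and 7.99 with MyoD. This rise was small and was called in both fits (0.51 and 0.50, limma adjusted p = 0.0122 and 0.00949), but 4 of 15 other settings lost the call. The other Des probe set read -0.50 (0.03 without control 2) and was not called in either fit. The member that fell was Ankrd1, a stress-responsive ankyrin repeat protein of muscle, which is given with the falls.

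Genes for calcium handling and metabolism were next. Of 26 genes of excitation-contraction coupling 3 rose (5 without control 2) and 0 fell. Ryr1, the calcium release channel of skeletal muscle, read 5.62, 5.26 and 5.72 in the controls and 7.94, 8.01 and 8.05 with MyoD, a difference of 2.47 (2.34; limma adjusted p = 1.03e-09). Atp2a1, the calcium pump of fast muscle, read 5.72, 5.72 and 5.73 in the controls and 7.39, 7.32 and 7.33 with MyoD, a rise of 1.62 (1.62). Both genes had groups far apart. Of 12 genes of the dystrophin complex 1 rose (2 without control 2), namely the laminin chain Lama2 at 0.76 (1.13), and of 22 muscle energy enzymes 1 rose (3), namely the muscle enolase Eno3 at 0.91 (0.71). Ckm, the muscle creatine kinase, read 6.27 ± 0.64 (SD, n = 3) in the controls and 5.88 ± 0.080 with MyoD and did not pass the test (limma adjusted p = 0.20, or 0.98 without control 2).

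**Figure D3:**
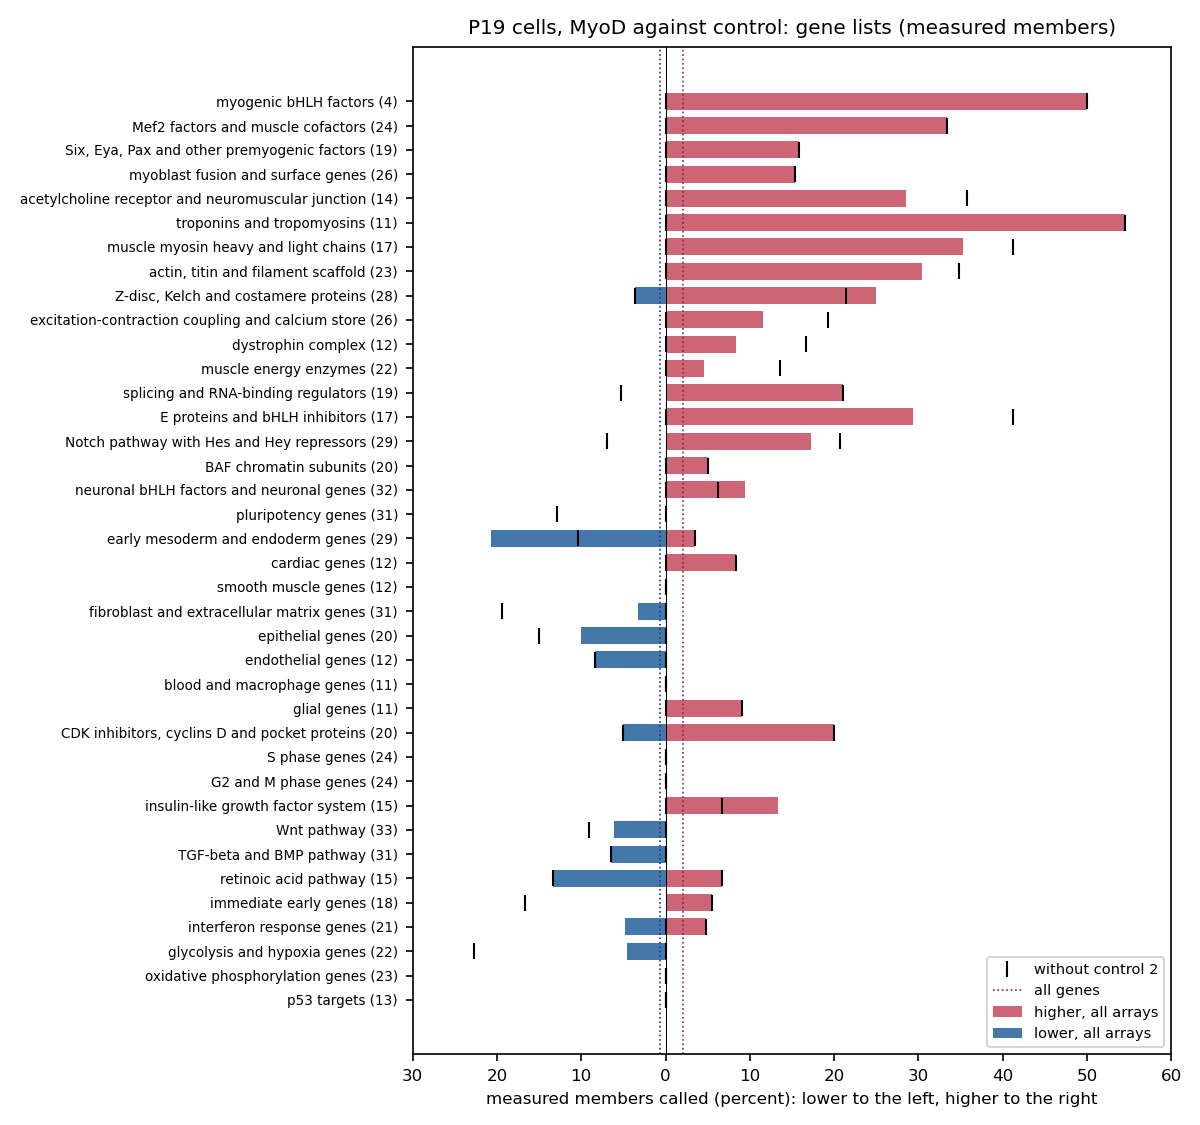
Share of measured members called higher (to the right) or lower (to the left) in P19 cells with MyoD for 38 gene lists, with bars for all arrays, ticks for the fit without control 2 and dotted lines for the shares over all genes. The lists of the contractile apparatus reach 30.4% to 54.5% higher with 0 lower, and the ticks of the pluripotency, fibroblast and glycolysis lists lie left of their bars.

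Genes that work beside or against MyoD rose as well. Of 17 E proteins and bHLH inhibitors 5 rose with all arrays and 7 without control 2, and 0 fell. Id2 and Id4, which hold E proteins in inactive pairs, rose by 1.19 (0.71) and 1.24 (0.74), and the E protein Tcf4 rose by 1.15 (0.75). Id1 read 7.80, 7.37 and 8.00 in the controls and 8.44, 8.45 and 8.28 with MyoD, a rise of 0.66 (0.49), but against the controls of batch 3 it was lower by -0.48 (limma adjusted p = 0.0142). Zeb1, a repressor that binds E-boxes, rose by 0.48 with all arrays and lost the call without control 2 (limma adjusted p = 0.0461 and 0.0924). Snai1, a repressor of the same kind, showed the reverse, at 0.66 with all arrays (limma adjusted p = 0.16) and 1.29 without control 2. Of 29 Notch pathway genes 5 rose and 0 fell, or 6 and 2 without control 2. The ligand Dll1 read 7.55, 7.88 and 7.44 in the controls and 9.51, 9.39 and 9.48 with MyoD, a rise of 1.84 (1.97; limma adjusted p = 4.2e-07). Its groups lay well apart. Hes6, a bHLH factor that favours differentiation, rose by 1.47 (1.31), the Notch effectors Hey1 and Hes5 by 1.11 (1.29) and 0.54 (0.40), and the receptor Notch2 by 0.89 (0.54).

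Among 19 splicing and RNA-binding regulators 4 rose and 0 fell (4 and 1 without control 2). Celf2, which acts on muscle splicing, read 8.63, 6.27 and 8.72 in the controls and 10.52, 10.61 and 10.84 with MyoD, a difference of 2.78, or 1.98 without control 2. The muscle splicing factors Rbm20 and Rbm24 rose by 1.99 (1.55) and 1.96 (1.49), and Rbfox2 by 0.57 (0.39).

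Of 20 CDK inhibitors, cyclins D and pocket proteins 4 rose and 1 fell in both fits. Besides Rb1, these were Gadd45g at 1.37 (1.54), the growth arrest gene Btg1 at 1.15 (0.78) and the cyclin Ccnd3 at 1.01 (0.88), while the stress gene Gadd45b fell by 0.50 (-0.52 without control 2). Cdkn1a, the p21 inhibitor that marks cell cycle exit in muscle, read 8.23, 8.51 and 8.11 in the controls and 8.62, 8.57 and 8.55 with MyoD. The groups did not overlap, but the difference of 0.30 did not pass (limma adjusted p = 0.17). Cdkn1c, the p57 inhibitor, read 6.46 ± 0.20 and 6.54 ± 0.12 and did not pass either. Of 24 S phase genes and 24 genes of G2 and M phase 0 were called in either fit, with medians of 0.29 and 0.26 that became 0.06 and -0.00 without control 2.

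The falls were fewer than the rises, and none reached 4-fold with all arrays, while 2 did without control 2. Lgals3, a galectin, read 8.45, 7.18 and 8.43 in the controls and 6.20, 6.31 and 5.76 with MyoD. It fell by 1.93 with all arrays and by -2.35 on the same scale without control 2 (limma adjusted p = 1.73e-05 and 2.42e-10). Control 2 was the lowest control and still lay above every MyoD array. Krt19, a keratin of simple epithelia, read 7.20, 7.44 and 7.48 in the controls and 5.60, 5.72 and 5.39 with MyoD, a fall of -1.80 (-1.77 without control 2; limma adjusted p = 0.000643). Cav1, the coat protein of caveolae, changed by -1.90 (-2.25). Of 20 epithelial genes 2 fell (3 without control 2), Krt19 and the tight junction protein Cldn7 at -1.10 (-0.73).

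Ankrd1 read 8.23, 8.88 and 8.45 in the controls and 6.25, 6.59 and 6.73 with MyoD, a difference of -1.99 (-1.81 without control 2; limma adjusted p = 0.0167 and 0.0416). Its direction depends on the controls used: against the P19 controls of batch 3 the difference was 0.25 (limma adjusted p = 0.87). Dusp14, a phosphatase of MAP kinases, read 7.48, 7.10 and 7.66 in the controls and 5.72, 6.03 and 5.69 with MyoD, a fall of -1.60 (-1.76; limma adjusted p = 0.0309). Its groups did not overlap, which was a condition for counting among the largest falls.

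Early mesoderm and endoderm gave 6 falls and 1 rise among 29 genes, or 3 and 1 without control 2. The list median was -0.37 (-0.25). Eomes, a T-box factor of the early mesendoderm, read 9.97, 8.73 and 10.09 in the controls and 8.23, 8.42 and 8.47 with MyoD, a fall of -1.23 (-1.66; limma adjusted p = 0.0291). Control 2 lay close above the MyoD arrays and controls 1 and 3 well above them. Foxa2, an endoderm factor, fell by -0.77 (-0.71), and Gsc, the organiser factor Goosecoid, by -1.60 with all arrays but lost the call without control 2 at -1.26 (limma adjusted p = 0.0719). Foxc2 and Cer1 likewise lost it, at -0.40 and -0.54. The member that rose was Cxcr4, a chemokine receptor of migrating precursors, at 1.74 (0.96). Of 33 Wnt pathway genes 2 fell (3) and 0 rose, namely the ligand Wnt4 at -1.13 (-1.31) and the receptor Fzd10 at -0.53 (-0.58). Sp5, a target of Wnt signals, read 7.73, 7.78 and 7.71 in the controls and 6.84, 6.46 and 6.35 with MyoD, a fall of -1.19 (-1.17; limma adjusted p = 0.00344).

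Some growth factors and receptors were among the lower genes, while others, such as the receptors Met and Cxcr4 given above, rose. Bmp4 read 8.34, 8.34 and 8.64 in the controls and 6.90, 6.99 and 6.95 with MyoD, a difference of -1.49 (-1.54 without control 2; limma adjusted p = 0.00242). Against the batch 3 controls it was -0.55 and was not called (limma adjusted p = 0.24). Bmp4 was counted with the early mesoderm genes. Of 31 TGF-beta and BMP pathway genes 2 fell in each fit, 1 of them in both, and 0 rose. These 2 are 6.45%, beside 0.676% of all genes, or 1.85% without control 2. Inhbb fell by -0.88 with all arrays and lost the call without control 2 (limma adjusted p = 0.1), and Tgfb1 fell by -0.66 (-0.76). Flt1, a receptor for vascular endothelial growth factor, read 7.99, 6.72 and 8.16 in the controls and 6.30, 6.16 and 6.29 with MyoD, and Pdgfb 7.63, 7.56 and 7.67 and then 6.37, 6.42 and 6.48. Both genes fell, Flt1 by -1.38 (-1.83) and Pdgfb by -1.20 (-1.23). Their groups were separate, which was a condition for counting among the largest falls. Of 15 retinoic acid pathway genes 2 fell and 1 rose in each fit: the degrading enzyme Cyp26a1 at -1.14 (-1.07), the receptor Rarg at -0.52 (-0.44), and the receptor Rarb at 1.22 (0.75).

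Pluripotency genes as a group gave 0 calls of 31 with all arrays, and 0 rises and 4 falls without control 2, with a median of -0.22 in both fits. Sox2 read 12.09, 10.76 and 12.02 in the controls and 11.96, 12.11 and 12.43 with MyoD. Nanog read 9.24, 7.32 and 9.37 and then 8.43, 8.59 and 8.53, so that controls 1 and 3 lay above the MyoD arrays and control 2 below them. Neither passed in either fit (limma adjusted p = 0.19 and 0.82, or 0.94 and 0.097 without control 2). The 4 falls without control 2 were Dnmt3l at -0.87, Klf5 at -0.71, Dppa4 at -0.67 and Dnmt3b at -0.54.

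Markers of other cell types moved little or downward. Of 8 skeletal muscle markers 7 rose (6 without control 2), with a median of 2.71. The median level over those 8 was 5.49, 5.22 and 5.51 in controls 1 to 3 and 8.54, 8.65 and 8.54 with MyoD. Of 5 P19 markers 0 passed. Of 7 fibroblast markers 1 fell and 0 rose, or 2 and 0 without control 2, and their median level was 7.15, 6.47 and 7.22 in the controls and 6.01, 5.89 and 6.08 with MyoD. Over the wider list of 31 fibroblast and matrix genes 1 fell with all arrays, Col1a1 at -1.33 (limma adjusted p = 0.0169, and 0.0546 without control 2), and 6 others fell without control 2. Of 32 neuronal genes 3 rose (2), with a median of 0.01: Insm1 at 1.21 (1.17), Ebf3 at 0.66 (0.72), and Elavl4 at 0.89 with all arrays alone. Neurod1 read 4.41 ± 0.14 and 4.45 ± 0.13. Of 12 cardiac genes 1 rose, the calcium channel Ryr2 at 0.84 (0.70), of 11 glial genes 1, Mbp at 0.99 (1.01), and of 12 endothelial genes 1 fell, Flt1. Among 12 smooth muscle and 11 blood genes 0 were called in either fit. In arrays of whole cultures a share of cells that changed and a change in every cell cannot be told apart.

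The remaining lists held few calls. Of 15 genes of the insulin-like growth factor system 2 rose: Igfbp5, and Igfbp3 at 1.04 with all arrays, which lost its call without control 2 (limma adjusted p = 0.14) and was level, at -0.0018, against the batch 3 controls. Of 18 immediate early genes Fos rose, by 1.58 (1.00), and 3 others fell without control 2, Dusp6, Junb and Dusp1. Of 21 interferon response genes Rsad2, an antiviral enzyme, read 6.02, 6.56 and 6.04 in the controls and 8.28, 8.25 and 8.32 with MyoD, a rise of 2.08 (2.26; limma adjusted p = 3e-09). Irf1 fell by -0.60 with all arrays and lost the call without control 2. The other 19 interferon genes were not called, so Rsad2 rose without the rest of its list. Of 22 glycolysis and hypoxia genes 1 fell (5 without control 2), and of 23 oxidative phosphorylation genes and 13 p53 targets 0 were called in either fit.

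For some genes the call turned on control 2. With all arrays alone, 63 rises and 28 falls were called. Actc1, Taf15, Ackr3, Penk and Chst1 had the largest such rises, and control 2 was the lowest control for all 5. Taf15, an RNA-binding protein, read 8.88, 6.55 and 8.40 in the controls and 9.40, 9.37 and 9.79 with MyoD, a difference of 1.58 that became 0.88 (limma adjusted p = 0.0383 and 0.10). Among genes that exceeded 7.03 (the median gene value) in the mean of at least 1 group, the largest such falls were of Sfxn3, Syt11, Tmem59l, Irf1 and Tfpi, at -0.95 to -0.59. Control 2 was the highest control for all 5. Dimmer genes such as Gsc and Col1a1, given above, had larger falls of this kind. Without control 2 alone, 74 rises and 242 falls were called. With the same limit on the group mean, the largest falls were of Plac8, Postn, Sema3e, Epha2 and Ccn2. Ccn2, a matricellular growth factor, read 10.66, 9.42 and 10.56 in the controls and 9.47, 9.52 and 9.31 with MyoD, -0.78 with all arrays and -1.18 without control 2 (limma adjusted p = 0.0791 and 8.14e-05). With that limit the largest rises were of Macrod1, Lfng, Actn3, Pou3f1 and Arid5a, at 1.27 to 0.67 without control 2, with control 2 the highest control for each. Snai1, a dimmer gene, stood at 1.29.

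MyoD in MEFs changed more genes and changed muscle genes further. There 1963 genes rose (10.8%) and 2638 fell (14.5%). Of the 307 genes that rose in P19 cells in both fits, 151 also rose in MEFs, 39 fell and 117 were not called. The 151 were 49.2% of the P19 rises and 7.69% of the MEF rises. Of the 95 falls, 43 fell in MEFs, 45.3% of the P19 falls and 1.63% of the MEF falls. These groups share no arrays, but the MEFs carried other alleles and had another medium. With MyoD, Myod1 itself read 9.66 in P19 cells and 12.73 in MEFs, and its rise was smaller in P19 cells (limma adjusted p = 7.09e-07). No harvest hour after infection is listed for the MEFs, against 72 hours for P19 cells with MyoD. Cell type, culture and Myod1 level therefore cannot be told apart. Tested directly, the MyoD difference was higher in P19 cells than in MEFs for 2677 genes (14.7%) and lower for 1163 (6.39%), or 3064 (16.8%) and 2495 (13.7%) without control 2 and 2588 and 2038 after another quantile normalization. Among the 307 rises it was higher for 132, lower for 76 and not called for 99.

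The muscle genes lay on the lower side. Myog reached 7.85 ± 0.17 (SD, n = 3) in P19 cells and 14.03 in MEFs from nearly the same control level, 5.31 and 5.24, so its rise was smaller by 6.25 on the log2 scale. Tnni1, Actc1, Myl4, Mylpf, Lmod3, Tnnc2 and Tnnt2 differed by -6.93 to -6.05. Of 11 troponins and tropomyosins 9 had a smaller effect in P19 cells and 1 a larger one, of 23 scaffold genes 16 and 0, of 26 genes of excitation-contraction coupling 18 and 1. Mymk and Mymx, which did not pass in P19 cells, rose by 8.35 and 7.76 in MEFs, and Ckm by 5.70. Klhl41 stood at 8.69 in P19 cells and 10.23 in MEFs with MyoD, and its effects differed by -1.39. Tnnt1 ended at nearly the same level in both, 12.31 and 12.41, because its P19 controls were already bright.

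**Figure D4:**
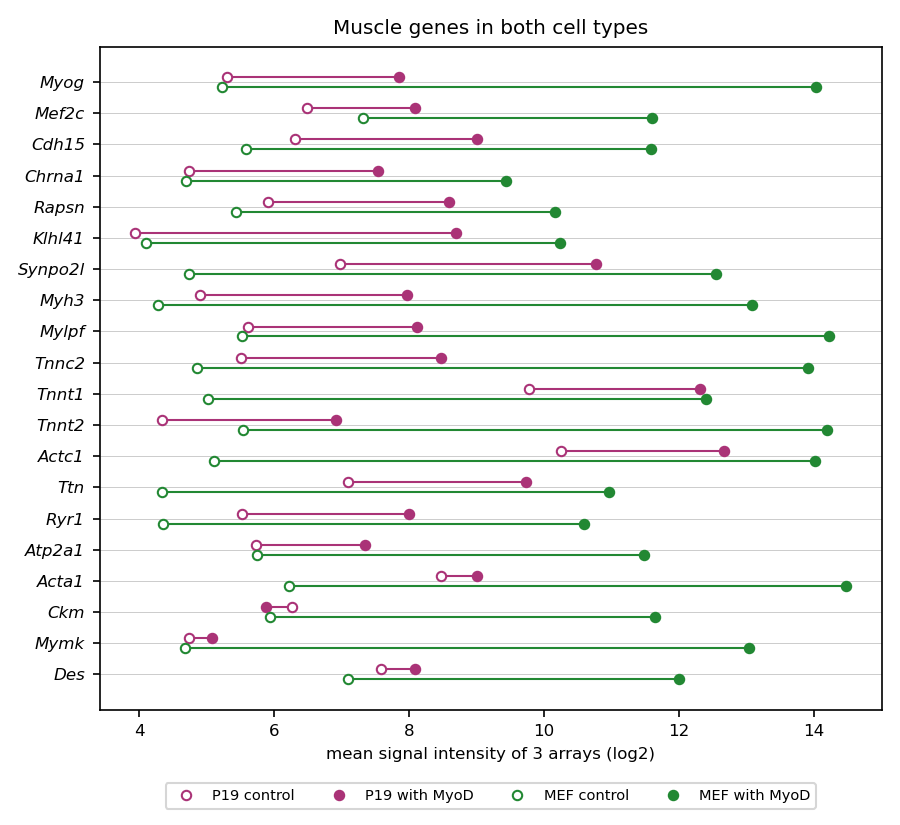
Mean signal intensity (log2) of 3 arrays for 20 muscle genes in P19 cells and MEFs, open circles for controls and filled circles for cells with MyoD, joined by a line for each cell type. The MEF lines reach further right for all 20 genes, and Acta1, Ckm, Mymk and Des have short P19 lines.

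Other genes responded more in P19 cells. Cbln4 rose by 3.16 there and read 4.10 and 3.95 in MEFs, a difference between effects of 3.31. Eya1 rose by 2.01 in P19 cells and fell by 1.29 in MEFs. Smarcd3 and Myo5b rose in both cells and more in P19, by 1.05 and 0.89. Musk, the kinase of the neuromuscular junction, rose by 1.99 in P19 cells and read 5.63 and 5.89 in MEFs, a difference between effects of 1.72 (limma adjusted p = 1.2e-05). Some of the largest differences came from falls in MEFs rather than from P19 cells: Saa3, an acute phase protein, rose by 1.13 in P19 cells and fell from 14.07 to 10.45 in MEFs, and Gbp2b, a guanylate-binding protein of the interferon response, fell by 0.65 in P19 cells and from 10.17 to 5.83 in MEFs. The P19 fall of Gbp2b lost its call without control 2. Of the 21 interferon genes 18 fell in MEFs.

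**Figure D5:**
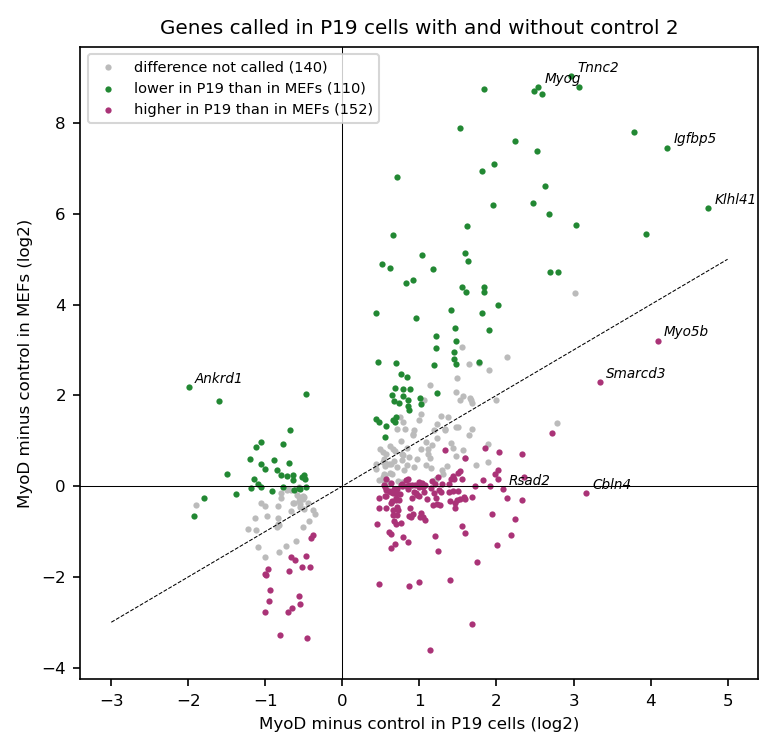
Difference between MyoD and control (log2) in P19 cells (horizontal) and MEFs (vertical) for the 402 genes called in P19 cells with and without control 2, coloured by the test of the difference between the cells, with a dashed line of equal values. The MyoD difference was higher in P19 cells than in MEFs for 152 of these genes, lower for 110 and not called for 140. Myog, Tnnc2, Igfbp5 and Klhl41 lie above the line.

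NeuroD2 in P19 cells, in batch 3 with its own controls, gave 928 rises (5.1%) and 589 falls (3.24%). Unlike Myod1 on the MyoD arrays, Neurod2 itself was not called higher on the probe set used. It read 6.39 in the batch 3 controls and 6.60 with NeuroD2 (limma adjusted p = 0.71), and the reason was not tested. Of the 307 rises with MyoD, 78 also rose with NeuroD2, 21 fell and 208 were not called. The 78 were 25.4% of the MyoD rises and 8.41% of the NeuroD2 rises. Of the 95 falls with MyoD, 28 fell with NeuroD2. In the test of the difference, the MyoD effect was higher than that of NeuroD2 for 473 genes (2.6%) and lower for 533 (2.93%). The counts were 823 (4.52%) and 1173 (6.45%) without control 2, and 1162 and 514 with each array shifted to the same median. Here factor and batch cannot be told apart. Among genes called in P19 cells with MyoD, Klhl41, Synpo2l, Myod1, Lurap1l, Tnnc2, Tnnt1, Rapsn and Ttn had the largest differences in favour of MyoD. For Klhl41 the NeuroD2 difference was -0.20 and for Myog -0.02, and neither was called.

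Several large MyoD responses were shared with NeuroD2 in part. Igfbp5 rose by 2.83 with NeuroD2, Megf10 by 2.38, Dll1 by 2.26, Tppp3 by 1.85, Myo5b by 1.71 and Hes6 by 1.36. Id2 and Id4 rose by 2.10 and 2.06 with NeuroD2, and the difference from MyoD did not pass with all arrays (limma adjusted p = 0.214 and 0.258) and passed without control 2 (0.00118 and 0.000618). For neuronal genes the larger responses were to NeuroD2: Neurod1 rose there, and its MyoD effect lay at -5.97 against that of NeuroD2 (limma adjusted p = 3.94e-14). Ebf3 rose by 4.91, Insm1 by 3.63 and Elavl4 by 2.78, and of 32 neuronal genes 25 rose with NeuroD2 against 3 with MyoD. Of the 307 rises with MyoD, 39 rose with NeuroD2 and in MEFs as well, and 84 were called in neither.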

How the data were processed

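RNA was measured on Affymetrix mouse arrays, 1 per sample. The deposited values are log2 signal intensities, normalized between arrays by the authors, per the quartiles of 23 columns. The submitters' processing notes name limma. How signals were summarised and normalized remains not given in the sources used here. The precision rests on the number of arrays. Of 45101 probe sets, 64 controls, 9160 without a symbol and 932 with several were set aside, and 34945 gave 18193 genes. Group means over all 24 arrays were fitted with limma 3.58.1 in R 4.3.3 (16 residual and 3.89 prior degrees of freedom). The tests were two-sided with Benjamini-Hochberg adjustment over all genes and a threshold of 0.05, and every limma p in the text is of this kind. The fit was tested on simulated data.

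The comparison, the 38 lists (771 of 808 entries measured) and the naming rule were chosen with earlier results of these data known, so no list is independent evidence. The rule took Myod1, Neurod2 and the 4 markers, the 15 largest rises and 12 largest falls called in both fits with separate groups and a higher mean above 7.03, the median of all gene values, up to 6 called members of each list, a set of lineage and cell cycle genes whatever their values, the 5 largest each way called in 1 fit alone with the same limit on the mean, and the 8 largest each way in each test of a difference. The other genes named, such as Snai1, Chrng, Cer1 and Dnmt3l, are list members chosen after their values were seen. Promoters were matched to RefSeq by symbol. Alternatives were renormalization, filters, probe set choices, limma settings, fewer arrays and other controls.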

Additional observations from a re-analysis of the deposited data

Results flagged for a closer look

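The response to MyoD differed between P19 cells and MEFs for 36 of 41 named genes looked at (limma test of the difference between effects, adjusted p up to 0.0319, and up to 0.0118 without P19 control 2, where all 36 also passed). Some of the 41 were named because they had large differences in this same test and so had to differ. The count of 36 is therefore not a rate for genes chosen without regard to it. Over all genes tested, the MyoD effect was higher in P19 cells for 14.7% and lower for 6.39%. The values below are the P19 effect minus the MEF effect on the log2 scale. Cell type, genotype, medium and the level of Myod1 cannot be told apart.

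Muscle genes made up the strongest negative values. Tnni1 stood at -6.93, Actc1 at -6.47, Myl4 at -6.37, Myog at -6.25, Mylpf at -6.21, Lmod3 at -6.10, Tnnc2 at -6.08, Tnnt2 at -6.05 and Myh3 at -5.74. Synpo2l (-4.01), Igfbp5 (-3.25), Rtn2 (-2.73), Rapsn (-2.04), Chrna1 (-1.93), Myod1 (-1.61) and Klhl41 (-1.39) rose in both cells and less in P19.

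Genes that fell in P19 cells gave the other negative values. Ankrd1 (-4.17) and Dusp14 (-3.48) fell in P19 cells and rose in MEFs. The rest were Pdgfb at -1.79, Bmp4 at -1.75, Krt19 at -1.54, Cyp26a1 at -1.30, Lgals3 at -1.27, Flt1 at -1.20 and Sp5 at -1.13.

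Positive values came from 11 genes. Myo5b at 0.89, Smarcd3 at 1.05 and Tppp3 at 1.54 rose in both cells and more in P19. Cbln4 stood at 3.31, and Eya1 at 3.30, Adgra2 at 3.36, Parp12 at 3.42, Gstt3 at 3.46, Pxylp1 at 4.71 and Saa3 at 4.75 rose in P19 cells and fell in MEFs. Gbp2b (3.70) fell in both and further in MEFs. The P19 calls of Adgra2 and Gbp2b were lost without control 2.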

How the results depend on the processing

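Of 125 named genes called with MyoD, 25 kept the call in every setting run, 99 lost it in at least 1 and 6 reversed in at least 1. The call was lost for 94 when the fit held the 6 arrays alone and for 22 without control 2. The rises (370) became 619 with each array shifted to the same median, 45 with only the arrays compared and 934 with the P19 controls of batch 3. The falls (123) became 269 with quantile normalization again, 5 and 1142. Genes with a lower MyoD effect in P19 cells than in MEFs became 2038 with quantile normalization again. Those with a higher effect became 1658 with only the arrays compared. Genes with a higher effect of MyoD than of NeuroD2 became 1162 with shifted medians and 88 with only the arrays compared, and those with a lower effect became 233 there. Leaving out 1 array at a time gave 202 to 4837 rises and 36 to 3027 falls. The MyoD effect was then higher in P19 cells than in MEFs for 2177 to 4047 genes and lower for 953 to 2495. Beside the NeuroD2 effect it was higher for 303 to 1666 genes and lower for 405 to 1173. The highest counts came without control 1 or 3, or, for 2495 and 1173, without control 2. Directions reversed for Plcb1 (-0.12 as the mean of all probe sets), and without probe sets that can match several transcripts for Synpo2l (-0.27, and -0.19 against NeuroD2, where that choice picked 1 of 2 such probe sets and the other rose by 3.54) and Tnnt2 (-0.088). With the batch 3 controls they reversed for Ankrd1 (0.25), Id1 (-0.48), Igfbp3 (-0.0018) and Id3 (-0.97). The causes were not tested. The counts stayed within 1.5 times without dim genes, with the mean of all probe sets, without probe sets shared by several transcripts and with a trended prior. Same-numbered control and MyoD arrays correlated at -0.19, 0.17 and 0.34 in their deviations, and arrays of unlike number at -0.34 to 0.31. With 3 arrays per group and control 2 far from the other controls, these values cannot show whether the numbers pair the samples. With replicate number as a block 336 genes rose and 83 fell, with 2624 and 1102 against MEFs and 438 and 518 against NeuroD2. Array weights could not be fitted and were not run. Of 144 other probe sets of 64 named genes, 57 had the same call, 87 were not called and 0 were called the other way. The table has no detection calls, so differences between dim values are limited by background.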
